A study of Mus musculus with 23 samples.

Results

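The 9 autosomal genes of the classical histone deacetylase family (Hdac1, Hdac2, Hdac3, Hdac4, Hdac5, Hdac7, Hdac9, Hdac10 and Hdac11) were followed as 9 of the 41388 gene start windows in the deposited heart and spleen tables. They were chosen by gene symbol, and each symbol matched 1 window in both tables. Their X-linked relatives Hdac6 and Hdac8 were not part of the set. Sheared DNA carrying methylated CpG sites was captured with MethylMiner, which pulls it down with a methyl-CpG binding protein, and sequenced. The left ventricle of the heart gave 4 libraries from mice on a control diet without resistant starch, 4 from mice on a diet rich in resistant starch (called high fibre here) and 3 from mice given acetate, as 100 mM magnesium acetate in their drinking water. The spleen gave 4 libraries for each diet. All groups were male C57Bl/6 mice, housed singly, that began their diet 3 weeks ahead of minipump surgery and kept it to the end. All groups therefore share that surgery, and what the pump delivered is not given in the sources used here. The labels do not say that each library of a group is a separate mouse, so every p-value measures the spread between these libraries.

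Histone deacetylases remove acetyl groups from lysines of histones and other proteins, and the classical family needs zinc for this. Class I enzymes (Hdac1, Hdac2, Hdac3) work in the nucleus as the catalytic subunits of corepressor complexes. Class IIa enzymes (Hdac4, Hdac5, Hdac7, Hdac9) have little deacetylase activity of their own, bind transcription factors of the MEF2 family and leave the nucleus when kinases phosphorylate them, a switch known from heart muscle growth. Hdac10 is the class IIb member of the set and acts on polyamines, and Hdac11 is the only class IV enzyme and removes long fatty acyl groups. Butyrate, a fatty acid made from fibre by gut bacteria, inhibits class I enzymes. The counts here describe captured DNA at the genes' starts, not the enzymes' expression or activity.

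Heart libraries totalled 4.12 to 8.60 M (mega) reads and spleen libraries 4.36 to 9.87 M, and the 9 windows together received 2824 ± 437 reads per library in heart (mean ± SD, n = 11) and 2500 ± 635 in spleen (n = 12). The repeat-rich window Gm10800 took 36.8 to 50.1% of reads in the control heart libraries, 17.3 to 21.3% on high fibre, 22.1 to 42.4% on acetate and 48.2 to 61.2% in spleen. Acetate heart replicate 1 stood apart from the other heart libraries, with the lowest median count per window (26, against up to 70) and 17.1% of windows without a read. Marker windows gave no check of the tissue labels, since captured DNA does not measure expression. Between control heart and control spleen, where 40% of all windows were higher and 32.7% lower, 4 of 12 cardiomyocyte marker windows were higher in heart and 8 lower, and 6 of 7 B cell marker windows were higher and 0 lower. The other lists had 3 higher and 1 lower of 6 for fibroblasts, 1 and 4 of 6 for endothelium, 3 and 1 of 8 for T cells, 3 and 0 of 4 for myeloid cells, and 1 and 2 of 6 for erythroid cells. Their summed level ran from 253 to 298 CPM in heart and 547 to 691 CPM in spleen for cardiomyocyte markers, and from 85.2 to 104 and 45.5 to 57.4 CPM for B cell markers, with 0 of these windows at 0. Whether cell makeup had a part in the results below was not tested. In bulk DNA, fewer cells with a methylated window and less methylation per cell cannot be told apart.

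Captured DNA differed widely among the 9 starts. CPM is a window's reads for each M reads in its library, scaled by TMM, a factor that sets the bulk of windows equal between libraries. All windows span 3 kb, but a window with more CpG sites can capture more DNA, and how reads shared by overlapping windows were counted is not given in the sources used here. The order of levels below is therefore one of window counts, and the places of Hdac3 and Hdac5, which have neighbours listed at 0, are the least sure. In control heart Hdac7, a class IIa member important in blood vessels, was highest at 146 ± 8.91 CPM (SD, n = 4), at percentile 99.5 of tested windows by its mean over the 11 libraries. Hdac4 (86.1 ± 2.71), Hdac5 (78.8 ± 11.1) and Hdac1 (75.5 ± 4.87 CPM) followed. Hdac5 overlapped each of the other 2 in its library values, whereas Hdac4 lay above Hdac1 in every control library. Hdac2 had 49.4 ± 2.15 CPM, and below it Hdac11 (33.7 ± 1.32) and Hdac3 (32.3 ± 3.30 CPM) overlapped. Hdac10 (20.1 ± 1.56) and Hdac9 (8.51 ± 1.19 CPM) closed the order without overlap. The median tested window in heart had 12.2 CPM, so only Hdac9 of the 9 lay below it.

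The order in control spleen, scaled within spleen, began with Hdac7 (106.5 ± 17.7 CPM), Hdac5 (74.6 ± 11.3), Hdac4 (59.65 ± 6.68) and Hdac1 (38.96 ± 2.03, n = 4 each). Hdac5 and Hdac4 overlapped there. Hdac11 (28.5 ± 4.21 CPM) stood above Hdac2 (18.4 ± 1.63) and Hdac3 (14.5 ± 3.44), which overlapped each other. Hdac10 and Hdac9 were the lowest again, at 1.75 ± 0.604 and 0.841 ± 0.572 CPM, and overlapped. Their spleen values rest on 7 to 25 and 2 to 17 reads per library over the 12 spleen libraries, and the median tested spleen window had 8.54 CPM. Hdac9 therefore did not reach the minimum count for the spleen tests, which hold the other 8 members.

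**Figure D1:**
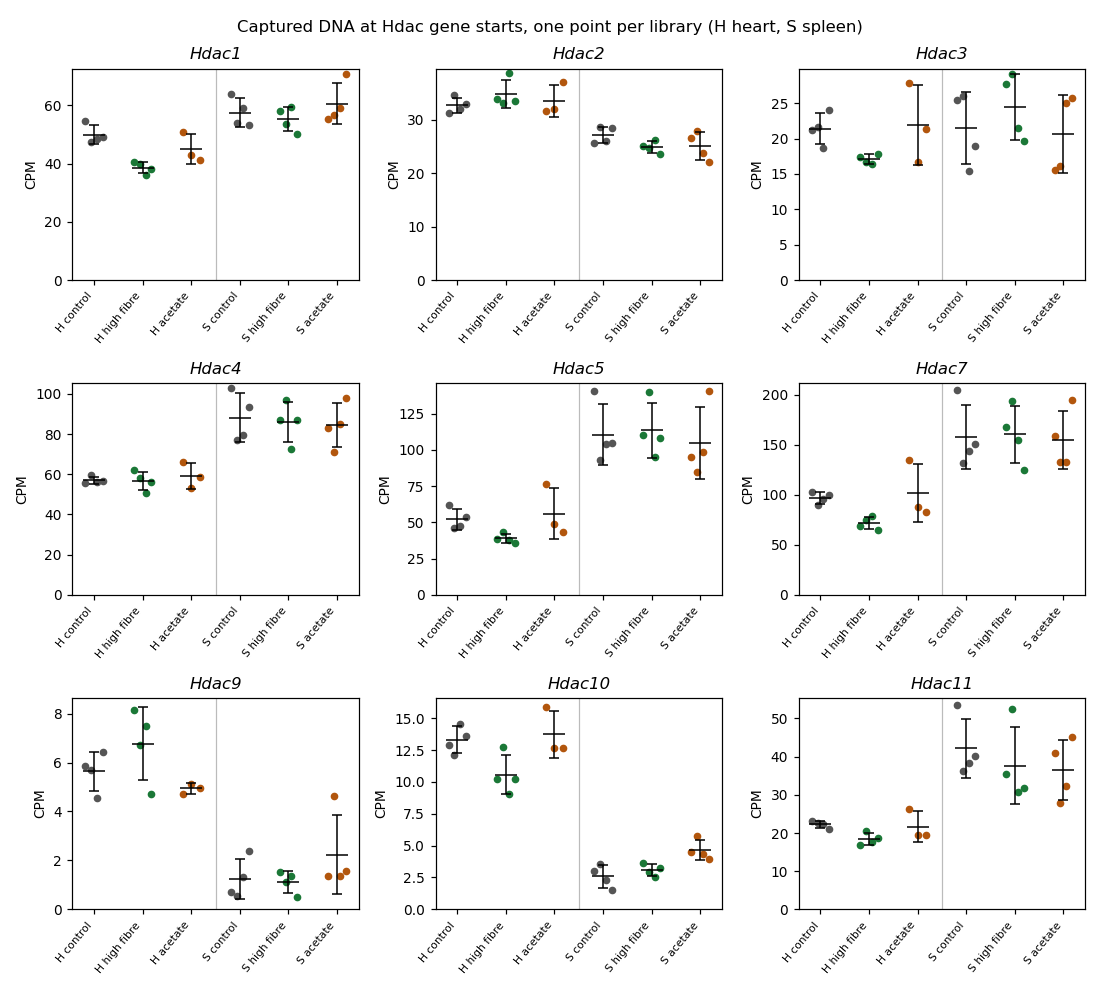
Normalised read counts (CPM, scaled over both tissues) of the 9 Hdac windows, 1 panel per gene on its own scale from 0, 1 point per library, for heart (H) and spleen (S) libraries on each diet; lines give the mean and bars the SD. Hdac9 and Hdac10 were the 2 windows with far more captured DNA in heart, while Hdac5, Hdac7 and Hdac11 were higher in spleen. Hdac9 held only 2 to 17 reads per spleen library.

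The genes also differ in the CpG density of their starts, a property of the sequence and not of these libraries. RefSeq promoters (GRCm38.p6, 250 bases before to 50 after a start) were at hand for 6 members and 10 starts, and Hdac1, Hdac3 and Hdac10 had no entry. The letters CG, which read the same on both strands, occurred 36 times in the Hdac2 promoter, 32 in that of Hdac4, 22 in that of Hdac11 and 18 in that of Hdac5. The 4 Hdac7 starts held 5, 31, 35 and 6, and the 2 Hdac9 starts held 3 and 0. Of all 32851 promoters of this length 94.6% held CG at least once, with a median of 7 and quartiles of 3 and 20. The member with the lowest capture, Hdac9, thus had the fewest CG among the members matched, while Hdac2, with the most, was the fifth in control heart. The Hdac9, Hdac5 and Hdac2 starts are printed because they span the range from few to many CG and belong to members that differed between heart and spleen in either direction. Capitals mark CG.
Hdac9 outer start, chr12:34917046-34917345, minus strand: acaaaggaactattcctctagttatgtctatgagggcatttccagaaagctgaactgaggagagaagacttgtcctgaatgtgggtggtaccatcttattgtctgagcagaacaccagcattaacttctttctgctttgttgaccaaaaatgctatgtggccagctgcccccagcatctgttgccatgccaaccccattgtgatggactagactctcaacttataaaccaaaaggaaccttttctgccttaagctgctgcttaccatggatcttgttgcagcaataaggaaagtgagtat
Hdac9 inner start, chr12:34528840-34529139, minus strand: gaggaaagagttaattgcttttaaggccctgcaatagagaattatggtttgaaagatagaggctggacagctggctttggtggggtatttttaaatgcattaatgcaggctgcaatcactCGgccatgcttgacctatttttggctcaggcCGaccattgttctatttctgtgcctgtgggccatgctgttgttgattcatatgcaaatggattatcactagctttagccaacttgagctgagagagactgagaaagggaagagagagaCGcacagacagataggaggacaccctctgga
Hdac5 start, chr11:102230123-102230422, minus strand: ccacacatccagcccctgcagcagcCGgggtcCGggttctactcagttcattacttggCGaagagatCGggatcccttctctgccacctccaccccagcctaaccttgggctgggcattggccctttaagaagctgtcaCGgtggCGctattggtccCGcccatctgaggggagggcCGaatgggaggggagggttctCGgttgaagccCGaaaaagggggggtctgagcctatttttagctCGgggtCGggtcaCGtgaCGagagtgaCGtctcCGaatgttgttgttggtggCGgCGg
Hdac2 start, chr10:36974294-36974593, plus strand: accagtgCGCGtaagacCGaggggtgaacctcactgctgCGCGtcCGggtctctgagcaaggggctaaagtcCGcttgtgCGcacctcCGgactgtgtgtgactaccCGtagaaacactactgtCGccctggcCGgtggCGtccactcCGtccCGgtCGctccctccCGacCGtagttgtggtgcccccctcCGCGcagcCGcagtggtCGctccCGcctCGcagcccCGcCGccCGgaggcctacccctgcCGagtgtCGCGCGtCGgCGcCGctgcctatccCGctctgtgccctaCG
In the first of these no CG is present, and in the last they follow each other closely over the whole stretch. The deposited windows are longer than these promoters, and which start of Hdac7 or Hdac9 a window was placed on is not given in the sources used here.

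The first comparison set high fibre heart against control heart. High fibre libraries held less captured DNA at Hdac1, a class I enzyme, and at the class IIa members Hdac5 and Hdac7, and 0 members were higher. The other class I and class IIa members Hdac2, Hdac3, Hdac4 and Hdac9 had values of 0.10, -0.31, 0.00 and 0.25 on the log2 scale, none past the threshold. Of all 33562 tested windows 26.2% were called, 12.6% higher and 13.6% lower, so 3 of 9 called in either direction is near the background share. All 3 were lower, beside the 13.6% of all windows. The share called among windows of like abundance was not taken. The median over the 9 members was -0.31, against 0.02 over all windows tested. The all-window median takes in windows of every abundance. Of 10 equal bins by abundance, the most abundant had a median of -0.27 and the next -0.26, and most members lie in these bins. Cell type marker windows were called in the same comparison, with levels here scaled over both tissues. Of fibroblast markers 3 of 6 were higher on high fibre (summed level 117 to 131 CPM, against 93.5 to 109 on control), and 0 were lower. Lower were 3 of 4 tested myeloid markers (60.6 to 72.5 against 83.9 to 101 CPM), 3 of 5 erythroid markers (49.7 to 55.4 against 63.7 to 68.3 CPM) and 3 of 8 T cell markers (96.6 to 115 against 129 to 149 CPM). Cardiomyocyte markers had 1 higher and 3 lower of 12, B cell markers 1 and 2 of 7, and endothelial markers 0 and 1 of 6. Apart from 1 myeloid window, none of the markers was at 0 in these groups, and the part of cell makeup in the members' values was not tested.

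Hdac1 (ENSMUSG00000028800, GRCm38.p6 chromosome 4, 129516104 to 129542646) had 82.6, 71.7, 73.3 and 74.5 CPM in the 4 control heart libraries and 60.6, 54.9, 58.1 and 61.4 CPM in the 4 high fibre libraries. The 2 groups did not overlap, and the 3 acetate libraries (77.2, 65.3 and 62.7 CPM) lay above every high fibre library. The log2 fold change on high fibre was -0.36 (SE 0.10, adjusted p = 0.0170), a 1.28-fold lower level. Hdac5 (ENSMUSG00000008855, chromosome 11, 102195747 to 102230172), whose loss in mice enlarges the stressed heart, had 93.6, 69.2, 71.6 and 80.8 CPM on control and 66.1, 57.2, 54.2 and 58.6 CPM on high fibre. Its acetate libraries spread from 65.7 to 116 CPM and overlapped both groups. The fold change was -0.42 (SE 0.14, adjusted p = 0.0370). Hdac7 (ENSMUSG00000022475, chromosome 15, 97792661 to 97844502) had 156, 135, 144 and 151 CPM on control and 113, 120, 98.5 and 104 CPM on high fibre, with a fold change of -0.43 (SE 0.13, adjusted p = 0.0212). Again no high fibre library reached the lowest control library.

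Hdac3, Hdac10 and Hdac11 had values in the same direction without a call. Hdac3 (ENSMUSG00000024454, chromosome 18, 37936971 to 37955015), the catalytic subunit of the NCoR and SMRT complexes, had 32.3 ± 3.30 CPM on control and 25.9 ± 0.979 on high fibre (-0.31, 95% interval -0.60 to -0.03, adjusted p = 0.0822). Hdac11 (ENSMUSG00000034245, chromosome 6, 91156670 to 91174692) had 33.7 ± 1.32 and 27.96 ± 2.36 CPM (-0.27, adjusted p = 0.0966). In both every high fibre library lay below every control library, which makes 5 such members in all. Over all windows, whatever their abundance, 17.1% showed that pattern. Hdac10 (ENSMUSG00000062906, chromosome 15, 89123303 to 89128700) had 20.1 ± 1.56 and 16.02 ± 2.33 CPM with overlap (-0.32, adjusted p = 0.0660).

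Hdac2, Hdac4 and Hdac9 went apart from the rest. Hdac2 (ENSMUSG00000019777, chromosome 10, 36974297 to 37001889), which shares its complexes with Hdac1, had 47.3, 52.2, 48.2 and 49.8 CPM on control and 50.4, 58.9, 50.9 and 51.3 CPM on high fibre. The groups overlapped (0.10, 95% interval -0.12 to 0.31). Hdac4 (ENSMUSG00000026313, chromosome 1, 91928779 to 92195702), a brake on MEF2 in muscle and cartilage, had 86.1 ± 2.71 and 86.2 ± 6.89 CPM, and its interval of -0.21 to 0.21 is the tightest of the 9. Hdac9 (ENSMUSG00000004698, chromosome 12, 34047580 to 34917095), the family's longest gene here and another MEF2 repressor in heart, had 8.51 ± 1.19 and 10.3 ± 2.26 CPM (0.25, interval -0.14 to 0.64).

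**Figure D2:**
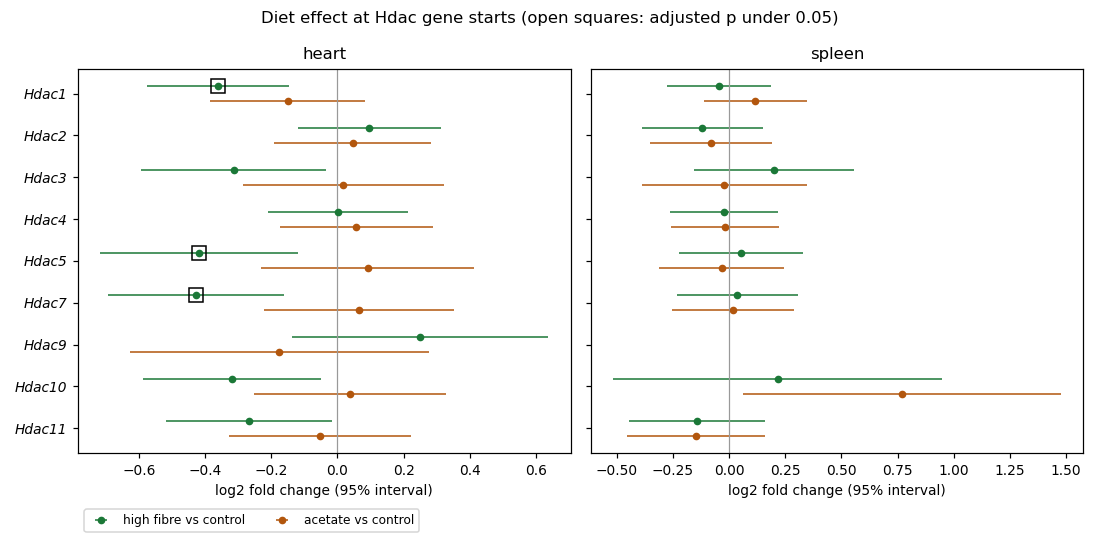
Log2 fold change of captured DNA with its 95% interval for high fibre against control (green) and acetate against control (orange), in heart (left) and spleen (right), 1 row per gene; open squares mark an adjusted p under 0.05. Hdac1, Hdac5 and Hdac7 on high fibre in heart carry the 3 squares, and Hdac9 was not tested in spleen.

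The heart libraries on high fibre differed from control in composition. Tested windows were sorted into 10 equal bins by abundance. Those of high abundance tended to lie below 0 and those of low abundance above it. The most abundant bin had a median of -0.27, and Hdac1, Hdac5 and Hdac7 at -0.36, -0.42 and -0.43 belong to it, as do Hdac2 and Hdac4 at 0.10 and 0.00. Hdac3 at -0.31 and Hdac11 at -0.27 lie in the next bin, with a median of -0.26. Hdac10 at -0.32 lies in a bin with a median of -0.115. Hdac9 lies in a bin of lower abundance with a median of 0.24, close to its own 0.25. The Gm10800 share was 19.05% ± 1.70 on high fibre and 42.3% ± 5.80 on control, and its part in the members' values was not tested.

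The calls depended on the scale. With library totals in place of TMM, which shifted the all-window median to 0.69, 6 members were called higher (Hdac1, Hdac2, Hdac4, Hdac9, Hdac10 and Hdac11, at 0.33 to 0.92) and 0 lower, beside 24612 of all 33562 windows called higher, and Hdac5 and Hdac7 turned to 0.28 and 0.27. With cyclic loess, which removes trends with abundance, Hdac1, Hdac5 and Hdac7 lost their calls at -0.11, -0.15 and -0.16, and Hdac2 and Hdac4 were called higher at 0.34 (adjusted p = 0.0448) and 0.26 (adjusted p = 0.0495). With 1 surrogate variable 0 of 9 were called, and 0.685% of all windows. The order among the members was steadier than their sign: Hdac2, Hdac4 and Hdac9 held the 3 highest values with TMM, with loess, with library totals and with 1 surrogate variable. Leaving out single libraries moved the calls of the members and of all windows together. Without control replicate 1, 0 members and 7.45% of all windows were called. Only Hdac1 kept its call without control replicate 3 (14% of all windows called), high fibre replicate 3 (15.5%) or high fibre replicate 4 (7.77%). Only Hdac7 kept it without high fibre replicate 2 (17%). Without acetate replicate 1, which enters through the shared spread, 6 members were called lower, with 42.3% of all windows called, 7105 of 33907 lower.

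A share of the reads within the 9 windows needs no scale across libraries, although shares of 9 items are tied to each other. This description was chosen after the values were seen. In heart Hdac4 took 16.25% ± 1.06 of the 9 windows' reads on control and 19.3% ± 1.52 on high fibre, with ranges of 15.1 to 17.6% and 17.4 to 20.9% that overlapped. Hdac2 took 9.33% ± 0.710 and 11.9% ± 1.01, and its ranges of 8.47 to 10.2% and 10.9 to 13.2% did not overlap. Hdac1 went the other way, from 13.8 to 14.8% on control to 12.3 to 13.7% on high fibre, also without overlap, and the other 7 members overlapped. Hdac7 took 27.6% ± 0.820 and 24.4% ± 1.78. On acetate the shares of Hdac4, Hdac2, Hdac1 and Hdac7 were 16.7% ± 1.52, 9.61% ± 2.15, 12.7% ± 0.946 and 28.1% ± 2.66 (n = 3). Shares were not taken over all windows, so the members without overlap on high fibre have no background by this measure. By CPM, 16.6% of all windows lay wholly above control on high fibre and 17.1% wholly below.

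**Figure D3:**
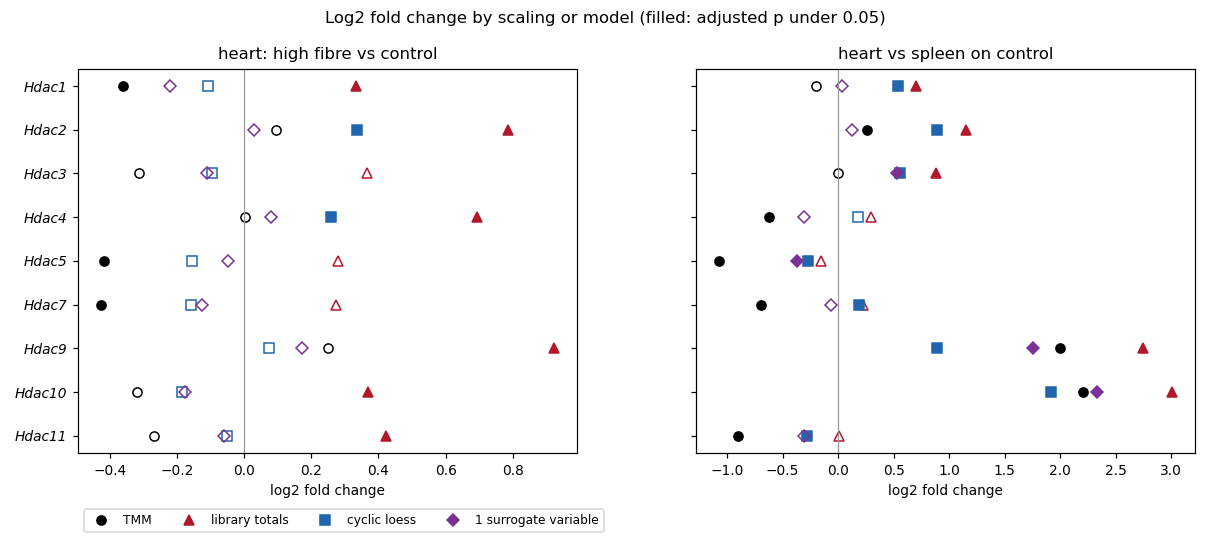
Log2 fold changes of the 9 windows under 4 ways of scaling or modelling the libraries (TMM, library totals, cyclic loess, 1 surrogate variable), for high fibre against control in heart (left) and heart against spleen on control (right); filled symbols have an adjusted p under 0.05. In the left panel 6 of the 9 members changed sign between TMM and library totals. In the right panel Hdac10 stayed above 0 throughout, as did Hdac9, which is shown as a description only.

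The second comparison set heart on magnesium acetate against control heart and asks whether captured DNA at these genes differed. No member was called, with values from -0.18 at Hdac9 to 0.09 at Hdac5 and an adjusted p of 0.9997 for each. By edgeR 0 of 33562 windows (0%) were called, 840 windows had an unadjusted p under 0.05, 0 of them a member, and DESeq2 also called 0. In 0 members did the acetate libraries all lie on one side of the control libraries, as they did above in 1.49% and below in 1.6% of windows. Hdac1 stood at 68.4 ± 7.71 CPM in the acetate group (n = 3), with the control group at 75.5 ± 4.87 (n = 4), a difference of -0.15 with an interval of -0.38 to 0.08. Hdac4 had the tightest interval, -0.17 to 0.29. For Hdac5, with 85.1 ± 27.2 CPM on acetate, the interval ran from -0.23 to 0.41. Acetate replicate 1 was highest of all 11 heart libraries at Hdac3 (42.3), Hdac4 (100), Hdac5 (116), Hdac7 (205), Hdac10 (24.1) and Hdac11 (39.9 CPM). Without it 5 members turned to negative values, among them Hdac5 (-0.19), Hdac7 (-0.18) and Hdac3 (-0.16), still without a call, while 684 of 33907 windows (2.02%) were called. With 1 surrogate variable 17 windows were called.

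High fibre was set against acetate as well, using the same high fibre libraries as above. Of all windows 1.38% were called, and 0 of the 9 members. The largest values were those of Hdac5, -0.51 (SE 0.16, adjusted p = 0.0640), and Hdac7, -0.49 (SE 0.14, adjusted p = 0.0549). At Hdac7 and Hdac1 (-0.21, adjusted p = 0.224) every high fibre library lay below every acetate library, a pattern seen in 11.1% of all windows. Hdac9 had 10.3 ± 2.26 CPM on high fibre and 7.5005 ± 0.318 on acetate (0.43, interval -0.01 to 0.86). Hdac5 and Hdac7 passed the threshold with DESeq2, which called 26.5% of the 9487 windows it gave an adjusted p, and Hdac7 without the low count filter (3.34% of all windows). Without acetate replicate 1 they stood at -0.24 and -0.25. Leaving out acetate replicate 2 called Hdac3, Hdac5 and Hdac7 (8.72% of all windows), and leaving out acetate replicate 3 called Hdac5 and Hdac7 (13.4%).

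In spleen no diet comparison called a member. Of 24871 tested windows 0% were called in each of the 3 comparisons, with 502, 872 and 823 at an unadjusted p under 0.05 for high fibre against control, acetate against control and high fibre against acetate, and DESeq2 gave 0 members as well. On high fibre the 8 tested members ran from -0.14 at Hdac11 to 0.22 at Hdac10. Hdac1 had 38.96 ± 2.03 CPM on control and 37.8 ± 3.03 on high fibre, with an interval of -0.27 to 0.19. Hdac7 (106.5 ± 17.7 and 108.95 ± 14.7 CPM, interval -0.23 to 0.31) and Hdac5 (74.6 ± 11.3 and 77.2 ± 9.96 CPM, interval -0.22 to 0.33) lay near 0 as well. On acetate 7 of the 8 lay between -0.15 and 0.12.

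Hdac10 was the exception on acetate in spleen. It had 1.96, 2.46, 1.55 and 1.04 CPM on control and 3.14, 4.28, 3.09 and 2.56 CPM on acetate. Every acetate library was higher than every control library, as in 1.3% of all windows (1.37% had the opposite), and the log2 fold change was 0.77 (SE 0.34, interval 0.06 to 1.48). It did not pass the threshold (adjusted p = 0.9995), and the counts behind it were 7 to 25 reads on control and 16 to 23 on acetate. High fibre spleen had 2.11 ± 0.335 CPM, each library below every acetate library (-0.55, interval -1.26 to 0.15), a pattern of 1.21% of windows.

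Heart and spleen were then compared on each diet, which asks how the tissues differ at these starts. Hdac10 had more captured DNA in heart, Hdac2 somewhat more, and Hdac4, Hdac5, Hdac7 and Hdac11 less. On the control diet 72.7% of all 33982 tested windows were called, 40% higher and 32.7% lower in heart, so 7 of 9 members called (3 higher, 4 lower) is near the background. Hdac9 entered this test only through its heart reads, the group where it is high, so its call is no support. Without it, 6 of 8 members were called on the control diet, 8 of 8 with high fibre and 7 of 8 with acetate. On high fibre 9 of 9 members were called (80.7% of all windows), 3 higher (45.1%) and 6 lower (35.6%). On acetate 8 of 9 were called (63%), 3 higher (34%) and 5 lower (29%). Members whose heart libraries all lay above or all below the spleen libraries numbered 3 and 4 on control (36.2% and 30.8% of all windows), 3 and 6 on high fibre (41.1% and 32.6%), and 3 and 4 on acetate (23.8% and 23.9%). Hdac9 is among those above on each diet. The median over the members was -0.20 on control, against 0.19 over all windows. The all-window median takes in windows of every abundance, and abundant windows tended to lie lower in heart. Hdac1 (-0.20) lies in the most abundant bin, with a median of -0.78. Hdac3 (-0.001) and Hdac11 (-0.90) lie in the next bin, with a median of -0.67. CPM in this comparison were scaled over both tissues and are lower in heart than those above.

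Hdac10, which deacetylates acetylated polyamines, had 13.3 ± 1.04 CPM in control heart and 2.58 ± 0.881 in control spleen (n = 4 each). In reads it had 128, 111, 99 and 108 in the control heart libraries and 13, 25, 14 and 7 in the control spleen libraries, with mean library totals of 6.97 and 8.48 M reads. Gm10800 took on average 42.3% and 55.8% of these totals. The median count per window averaged 47.75 in control heart and 20.5 in control spleen, so raw reads are not free of depth. At Hdac10 the lowest of all 11 heart libraries held 76 reads and the highest of all 12 spleen libraries 25. The log2 fold change was 2.21 on control (SE 0.20, adjusted p = 1.78e-11), 1.67 on high fibre and 1.51 on acetate (SE 0.21 and 0.20), and higher in every heart library on each diet. It kept its direction and its call on all 3 diets under every alternative scale, filter, test and left-out library, between 1.19 and 3.18. Windows of the same abundance bin had a median of 0.08.

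Hdac9 had 5.63 ± 0.782 CPM in control heart and 1.23 ± 0.821 in control spleen. Its reads ran from 24 to 86 in heart and from 2 to 17 in spleen, without overlap. The log2 fold change was 2.00 on control (SE 0.36), 2.28 on high fibre and 1.12 on acetate, given as a description because too few spleen reads left it out of the spleen fit. Windows of its abundance bin had a median of 1.00 on control. It stayed positive on each diet under every alternative run, from 0.30 to 3.70, and the lowest values on high fibre (0.81) and acetate (0.30) came with cyclic loess. Those runs rest on the same few spleen reads, so they are a description too and no support.

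Among the class I members Hdac2 had 32.7 ± 1.41 CPM in control heart and 27.2 ± 1.53 in control spleen (0.26, SE 0.12, adjusted p = 0.0401), with no overlap. It was also higher on high fibre (0.48) and on acetate (0.42), while windows of its abundance bin had a median of -0.67 on control. Hdac1 had 50.004 ± 3.23 and 57.6 ± 4.94 CPM on control (-0.20, adjusted p = 0.124) and was lower in heart on high fibre (-0.51) and acetate (-0.43). Hdac3 had 21.4 ± 2.16 and 21.5 ± 5.12 CPM, a difference of 0.00 with an interval of -0.35 to 0.35, and was lower in heart on high fibre only (-0.52, adjusted p = 0.00608).

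The class IIa members Hdac4, Hdac5 and Hdac7 and the class IV member Hdac11 were lower in heart on every diet. Hdac5 had 52.2 ± 7.31 CPM in control heart and 110.5 ± 20.9 in control spleen (-1.07, SE 0.17, adjusted p = 8.84e-07), and -1.54 and -0.91 on high fibre and acetate. Hdac11 had 22.3 ± 0.890 and 42.1 ± 7.79 CPM (-0.90, SE 0.16), Hdac7 96.9 ± 5.88 and 158 ± 32.1 CPM (-0.70, SE 0.16), and Hdac4 57.0 ± 1.78 and 88.2 ± 12.05 CPM (-0.62, SE 0.13). Windows of the most abundant bin had a median of -0.78, so Hdac4 and Hdac7 lay a little above that of their bin and Hdac5 below it. Scaling by library totals shifted the all-window median to 1.03 and turned Hdac1, Hdac3, Hdac4, Hdac7 and Hdac11 to values of 0.71, 0.89, 0.30, 0.22 and 0.01. With cyclic loess Hdac1, Hdac3, Hdac4 and Hdac7 turned to 0.54, 0.56, 0.18 and 0.19, while Hdac5 (-0.27) and Hdac11 (-0.28) stayed lower. With 1 surrogate variable Hdac3, Hdac5, Hdac9 and Hdac10 were the 4 members called, with 35% of all windows. Only Hdac5 of these was lower in heart, and Hdac3 was called higher, which it was not in the fit reported. Hdac4, Hdac7 and Hdac11 lost their calls with the surrogate variable. Hdac2 lost its call there (0.12) and without the low count filter (0.27, adjusted p = 0.0520).

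**Figure D4:**
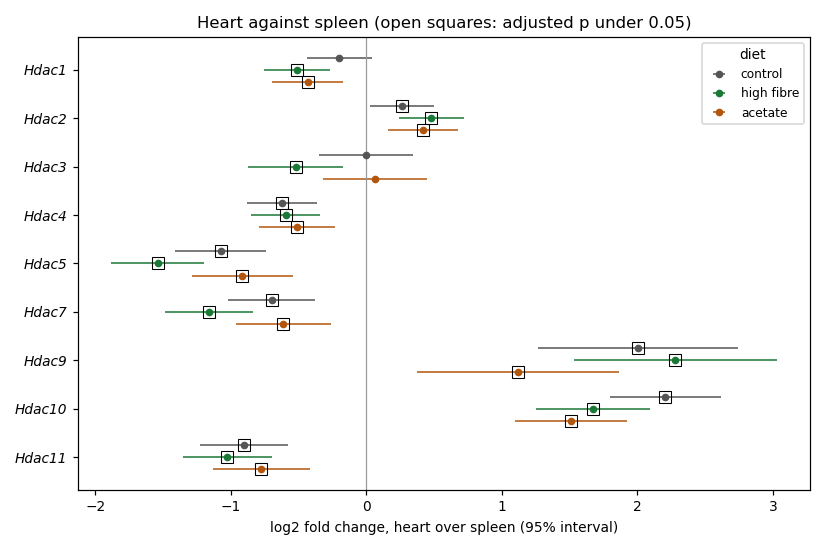
Log2 fold change of captured DNA in heart over spleen with its 95% interval on the control diet (grey), high fibre (green) and acetate (orange); open squares mark an adjusted p under 0.05. Hdac9 and Hdac10 lay above 1 on each diet, and Hdac5 had the most negative value on each. Hdac9 is shown as a description only, since it entered this test through its heart reads.

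Shares within the 9 windows, which need no scale across libraries, split the tissues at several members. Hdac10 took 3.09 to 4.29% of the members' reads over the 11 heart libraries and 0.305 to 1.34% over the 12 spleen libraries. Hdac9 took 1.08 to 2.74% in heart and 0.111 to 1.09% in spleen, where the acetate library with 17 reads touched the heart range. Hdac2 took 7.27 to 13.2% in heart and 3.67 to 6.53% in spleen. Hdac5 took 12.8 to 17.6% in heart and 19.7 to 24.1% in spleen. By class, the 3 class I windows took 25.4 to 32.0% in heart and 18.1 to 24.1% in spleen, and the 4 class IIa windows 57.7 to 64.9% and 67.1 to 72.6%, neither overlapping. These splits have no background over all windows either.

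Windows of genes beside a member were compared between the tissues too. Genes within 3 kb of a member's annotated ends were taken from the RefSeq table. Each distance below is between the nearest annotated ends of the genes, not between their starts. The start windows compared can therefore lie much farther apart. Tubgcp6, a subunit of the complex that starts microtubules, has an annotated end 95 bases from that of Hdac10 and had 64.7 ± 7.37 CPM in control heart and 116 ± 22.1 in control spleen (-0.84, adjusted p = 1.29e-05), the opposite direction to Hdac10. Mapk12, a p38 kinase, lies 1884 bases away and had 7.81 ± 1.96 and 5.16 ± 0.606 CPM (0.56, adjusted p = 0.0298). Slc48a1, a heme transporter 31 bases from Hdac7, had 9.68 ± 1.17 and 21.7 ± 2.80 CPM (-1.14), Fchsd1 near Hdac3 had 35.1 ± 2.61 and 64.9 ± 8.38 CPM (-0.87), and G6pc3, a glucose phosphatase near Hdac5, had 10.1 ± 1.98 and 14.5 ± 0.404 CPM (-0.50, adjusted p = 0.00435). Marcksl1, 123 bases from Hdac1, was higher in heart (1.28) at 13 to 32 reads per control heart library and 3 to 6 per control spleen library. On high fibre against control in heart Tubgcp6 (-0.45, adjusted p = 0.0142) and Fchsd1 (-0.43, adjusted p = 0.0273) were lower past the threshold, and Marcksl1 (-0.34), Slc48a1 (-0.13), G6pc3 (-0.10) and Mapk12 (-0.08) were not called. Rell2, 39 bases from Hdac3, and Mir8101, 22 bases from Hdac5, were listed at 0 in all 23 libraries. Which stretch of the Hdac3 and Hdac5 windows their counts cover is therefore unknown.

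The diet effects of the tissues were compared directly in 1 fit. For high fibre 0.0559% of all windows were called, 0.0177% higher and 0.0383% lower, and 0 of 9 members. The difference, heart effect minus spleen effect, was -0.46 at Hdac5 (adjusted p = 0.312), -0.46 at Hdac7 (adjusted p = 0.298) and -0.31 at Hdac1 (adjusted p = 0.339). The intervals at Hdac3 (-1.01 to -0.02) and Hdac7 (-0.91 to -0.01) lay below 0 before adjustment. For acetate 0% of windows were called, 1553 had an unadjusted p under 0.05, and Hdac10 had the one member interval that lay away from 0 (-0.70, -1.31 to -0.08, adjusted p = 0.9999). With DESeq2 0 members were called in either. The calls on high fibre in heart and their lack in spleen are therefore not shown to differ between the tissues at this depth.

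Partner genes of the enzymes were counted from 2 lists, with TMM only and under none of the other scales. For high fibre against control in heart 26.2% of all windows were called with TMM. With cyclic loess this share was 12%, and with 1 surrogate variable 0.685%. Of 36 subunits of class I corepressor complexes 30 were tested in heart. On high fibre 1 was higher and 7 were lower, against 12.6% and 13.6% of all windows, with a median of -0.08. Mier2 had -0.65 (adjusted p = 0.00645) and Mier1 0.54 (adjusted p = 0.0110), both scaffolds that recruit Hdac1 and Hdac2. Of 26 class IIa partners and kinases 25 were tested. Of these 5 were higher and 0 lower, against the same 12.6% and 13.6% of all windows, with a median of 0.11. Mef2c, a MEF2 factor needed for heart formation, had 0.75 (adjusted p = 0.00495), and Sik2, a kinase that sends class IIa enzymes out of the nucleus, had 1.03 (adjusted p = 0.00644). On acetate in heart and in all spleen comparisons 0 genes of either list were called. Between heart and spleen on control 13 of 31 corepressor genes were higher in heart and 10 lower, close to the 40% and 32.7% of all windows (median 0.25, against 0.19 over all windows), with the largest values at Sap130 (2.74) and Ing2 (2.68), 2 subunits of the Sin3 complex. Of the class IIa partners 6 of 25 were higher and 13 lower, beside the same shares of all windows (median -0.41), and Prkd1 (2.35) and Prkd2 (2.04), the protein kinase D enzymes that phosphorylate class IIa members, had the largest values.

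The members did not vary together as 1 group across the 23 libraries. Values were log2 CPM with each tissue's mean removed, and all points share their library's depth and scaling. Hdac5 and Hdac7 were the closest pair (Pearson r 0.903), and Hdac11 was most like Hdac7 (0.810). Hdac2 had no member above 0.286 and reached -0.603 with Hdac5, and Hdac10 had none above 0.371. Among 15017 to 15019 other windows the one most like Hdac7 was Plec (0.977), the cytoskeletal linker plectin, and the one most like Hdac5 was Calm3 (0.970), a calmodulin gene. Hdac11 was most like Pepd (0.933), Hdac1 like Zfp316 (0.904), Hdac3 like Sema3g (0.897), Hdac2 like Grm8 (0.772) and Hdac10 like Pik3ip1 (0.748). The class IIa members Hdac5 and Hdac7 thus had near copies of their pattern elsewhere, and Hdac2 and Hdac10 had the least similar best matches among the members given here.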

How the data were processed

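The deposited values are raw counts of reads per 3 kb gene start window, in 1 table for 11 heart and 1 for 12 spleen libraries of methyl-CpG enriched DNA. Per the submitters' processing notes, reads were handled with featureCounts 1.5.1, edgeR 3.16.5, BWA 0.7.10 and bcl2fastq 2.19.1.403 on build GRCm38. How windows were centred, and how duplicate or multiply placed reads were counted, is not given in the sources used here. Without an unenriched input, a count can be compared between libraries but is no methylation level.

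Counts were tested with the quasi-likelihood test of edgeR 4.0.16 (R 4.3.3) with TMM factors, filterByExpr at a minimum count of 10, a prior count of 2, and Benjamini-Hochberg adjustment at 5% over all tested windows. Diets were compared within a tissue, and tissues and their diet effects in 1 fit of 23 libraries. Depth was 4.12 to 9.87 M reads per library, and reads are not unique molecules, so counting error is a lower limit of the error. Alternatives were DESeq2 1.42.0, its size factors, library totals, cyclic loess with limma 3.58.1, 1 surrogate variable from sva 3.50.0, no low count filter, a block on the replicate number, and each library left out. The scripts were tested on simulated data with planted changes.

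All 9 members were tested in every comparison, apart from Hdac9 within spleen. In several comparisons the Results name only some of them. Of each gene list the 2 genes with the smallest p on high fibre in heart and the 2 with the largest called change between tissues are named, and for each member the window most like it over 23 libraries. One window chosen by this rule is not reported here. Genes within 3 kb of a member and read shares were added after values were seen. The members and lists were chosen with earlier results of these data known.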

Additional observations from a re-analysis of the deposited data

Results flagged for a closer look

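Among 45 checks of a member in a group of 4 libraries, 2 found 1 library far from the other 3, and chance alone gives about 1 in 20. Hdac2 in heart on high fibre had 58.9 CPM in replicate 2, against 50.4 to 51.3 CPM in the other 3 libraries. Hdac9 in spleen on acetate had 3.47 CPM in replicate 2, from 17 reads, against 0.957 to 1.00 CPM in the others. Of the tests of a difference in diet effect between heart and spleen, 0 passed for a member.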

How the results depend on the processing

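Most results kept their direction and side of the threshold under RLE size factors, DESeq2, no low count filter and the replicate block, while library totals, cyclic loess and 1 surrogate variable moved many. Members called for high fibre against control in heart numbered 3 in the fit reported, 6 with library totals and 0 with 1 surrogate variable, with 26.2%, 73.4% and 0.685% of all windows called. The 2 called with loess (12% of all windows) were other members, called higher. For high fibre against acetate in heart 0 members were called, 1 without the filter, 2 with DESeq2 and 2 with the replicate block (1.38%, 3.34%, 26.5% and 6.81% of all windows). Between heart and spleen 7, 9 and 8 members, Hdac9 among them each time, were called on control, high fibre and acetate. These became 4, 2 and 2 with 1 surrogate variable (35%, 19.7% and 35.5% of all windows, against 72.7%, 80.7% and 63%), and 5 and 4 with loess on high fibre and acetate (52.2% and 40.3%). For the tissue difference in the high fibre effect library totals called 2, against 0, with 18.8% of all windows. Leaving out 1 library in turn gave 0 to 6 members for high fibre against control in heart, 0 to 3 for high fibre against acetate in heart, 6 to 7, 9 and 8 between tissues, and 0 in the other comparisons. The replicate block changed no other count of members called. In the fit over both tissues the block was the number that the titles of 1 heart and 1 spleen library share, and no label says that it marks a mouse. Deviations of these pairs had a Pearson r of -0.113 to 0.375, over 0.1 in 4 of 11 pairs, and 5 of 11 heart libraries correlated best with their own number. Libraries of 1 tissue with the same number on different diets reached similar or higher values. Their r ran from -0.075 to 0.598 in heart (5 of 10 pairs over 0.1) and from -0.048 to 0.331 in spleen (4 of 12). The pairs therefore do not show that a number marks a mouse. The cause of the shifts in members called was not tested. Values below are log2 fold changes. The low read counts of Hdac9 and Hdac10 limit what the spleen comparisons can show.

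With library totals 44 values changed sign. Hdac1 had 0.33, Hdac3 0.37, Hdac5 0.28, Hdac7 0.27, Hdac10 0.37 and Hdac11 0.42 for high fibre against control in heart. Hdac1 had 0.081, Hdac9 0.062 and Hdac11 0.18 for acetate against control in heart. Hdac1 had 0.25, Hdac3 0.12, Hdac4 0.40, Hdac7 0.0096, Hdac10 0.089 and Hdac11 0.25 for high fibre against acetate in heart. Hdac2 had 0.093, Hdac3 0.15, Hdac4 0.17, Hdac5 0.16 and Hdac11 0.033 for acetate against control in spleen. Hdac5 had -0.088, Hdac7 -0.14 and Hdac11 -0.15 for high fibre against acetate in spleen. Hdac1 had 0.71, Hdac3 0.89, Hdac4 0.30, Hdac7 0.22 and Hdac11 0.0082 for heart against spleen on control. Hdac1 had 1.07, Hdac3 1.05, Hdac4 1.00, Hdac5 0.052, Hdac7 0.43 and Hdac11 0.55 for heart against spleen on high fibre. Hdac1 had 0.49, Hdac4 0.42, Hdac7 0.28 and Hdac11 0.15 for heart against spleen on acetate. Hdac1 had 0.37, Hdac3 0.17, Hdac5 0.21, Hdac7 0.21, Hdac10 0.17 and Hdac11 0.54 for the tissue difference in the high fibre effect. With cyclic loess 22 values changed sign. Hdac1 had 0.036 and Hdac4 0.20 for high fibre against acetate in heart. Hdac3 had 0.014, Hdac4 0.025 and Hdac5 0.0046 for acetate against control in spleen. Hdac7 had -0.020 and Hdac11 -0.032 for high fibre against acetate in spleen. Hdac1 had 0.54, Hdac3 0.56, Hdac4 0.18 and Hdac7 0.19 for heart against spleen on control. Hdac1 had 0.54, Hdac3 0.26, Hdac4 0.55 and Hdac7 0.11 for heart against spleen on high fibre. Hdac1 had 0.25, Hdac4 0.23 and Hdac7 0.18 for heart against spleen on acetate. Hdac1 had 0.00058, Hdac9 -0.081 and Hdac11 0.16 for the tissue difference in the high fibre effect. Hdac7 had -0.0060 for the tissue difference in the acetate effect. With 1 surrogate variable 18 values changed sign. Hdac2 had -0.019, Hdac4 0.032 and Hdac11 0.0037 for high fibre against acetate in heart. Hdac3 had 0.031, Hdac4 0.039 and Hdac5 0.084 for acetate against control in spleen. Hdac2 had 0.027, Hdac5 -0.0059, Hdac7 -0.082 and Hdac11 -0.12 for high fibre against acetate in spleen. Hdac1 had 0.032 and Hdac3 0.53 for heart against spleen on control. Hdac3 had 0.29 for heart against spleen on high fibre. Hdac11 had 0.17 for the tissue difference in the high fibre effect. Hdac3 had -0.095, Hdac5 -0.10, Hdac7 -0.17 and Hdac11 -0.065 for the tissue difference in the acetate effect. Without the low count filter, Hdac4 had -0.0038 for high fibre against control in heart, Hdac7 had -0.035 for acetate against control in spleen and Hdac4 had 0.026 for high fibre against acetate in spleen. With the replicate block, Hdac4 had -0.0024 for high fibre against control in heart, Hdac11 had -0.0023 for high fibre against acetate in spleen and Hdac3 had 0.0040 for heart against spleen on control. With RLE size factors, Hdac3 had 0.11 for heart against spleen on control. With DESeq2, Hdac3 had 0.11 for heart against spleen on control.

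Leaving out single libraries turned the sign of values near 0. Hdac4 ran from -0.041 to 0.051 for high fibre against control in heart. Hdac2 ran from -0.038 to 0.085, Hdac3 -0.16 to 0.19, Hdac4 -0.022 to 0.13, Hdac5 -0.19 to 0.25, Hdac7 -0.18 to 0.19, Hdac10 -0.056 to 0.090 and Hdac11 -0.20 to 0.020 for acetate against control in heart. Hdac2 ran from -0.0017 to 0.13 and Hdac4 -0.13 to 0.023 for high fibre against acetate in heart. Hdac4 ran from -0.071 to 0.037, Hdac5 -0.036 to 0.16 and Hdac7 -0.040 to 0.16 for high fibre against control in spleen. Hdac2 ran from -0.16 to 0.013, Hdac3 -0.16 to 0.12, Hdac4 -0.070 to 0.034, Hdac5 -0.17 to 0.073 and Hdac7 -0.074 to 0.13 for acetate against control in spleen. Hdac2 ran from -0.13 to 0.042, Hdac4 -0.047 to 0.061, Hdac7 -0.053 to 0.11 and Hdac11 -0.17 to 0.084 for high fibre against acetate in spleen. Hdac3 ran from -0.13 to 0.12 for heart against spleen on control. Hdac3 ran from -0.12 to 0.23 for heart against spleen on acetate. Hdac4 ran from -0.052 to 0.091, Hdac9 -0.085 to 0.52 and Hdac11 -0.26 to 0.081 for the tissue difference in the high fibre effect. Hdac3 ran from -0.12 to 0.23, Hdac5 -0.12 to 0.34, Hdac7 -0.17 to 0.22 and Hdac11 -0.018 to 0.25 for the tissue difference in the acetate effect.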
